A study of Homo sapiens with 3 samples.

Results

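The genes described are the ubiquitin-conjugating E2 enzymes, taken as every protein-coding gene of GENCODE 29 whose symbol starts with UBE2. There were 37 such genes with 303 transcripts, among 52992 genes and 181857 transcripts matched in the deposited tables. RNA was pulled down with one of 3 proteins from a lysate of J82 cells, a standard line grown from a human bladder tumour, and was then sequenced. The proteins were glutathione S-transferase (GST) alone, GST fused to wild-type ZFP36L1, and GST fused to an alanine mutant of ZFP36L1, called the Ala mutant below. The labels do not give the residues replaced by alanine. There was 1 library per protein, so nothing could be set against a replicate, no test across libraries was possible, and every interval below covers counting error only. The fusion proteins met RNA in a lysate and not in living cells, and the 3 libraries show shares of the recovered RNA, not its amount.

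Ubiquitin is passed along a relay of enzymes. An E1 enzyme activates ubiquitin, an E2 enzyme carries it on an active-site cysteine, and an E3 ligase brings the loaded E2 to the substrate. Some E2 enzymes serve ubiquitin-like proteins such as NEDD8 or ISG15 instead, and the UBE2V proteins lack the cysteine and act as partners of UBE2N. The choice of E2 helps to set the length and linkage of the ubiquitin chain. ZFP36L1 binds RNA through a pair of zinc fingers. It prefers AU-rich stretches of the untranslated region after the stop codon (the 3' UTR), where UAUUUAU is its best-known site, and it recruits the enzymes that shorten and degrade the mRNA.

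Of the 32 measured UBE2 genes with an annotated 3' UTR, 9 held UAUUUAU in the 3' UTR of their main coding transcript, which is 28.1%, against 30.9% of 11597 genes. The search was for these letters on the mRNA strand only. These genes were UBE2A, UBE2G2, UBE2K, UBE2M, UBE2N, UBE2R2, UBE2T, UBE2V2 and UBE2W. The windows of 29 bases below show the site in 5 of them, chosen to set UBE2N and UBE2T, which were higher with the wild-type protein than with GST, beside 3 that were not called. Sequences are those of GENCODE 29 transcripts (GRCh38), 5′ to 3′, with UAUUUAU in capitals.
UBE2N, chr12:93409149-93409177, minus strand: acugaauggagUAUUUAUaaacuggcccu
UBE2T, chr1:202331707-202331735, minus strand: uuuguguaguuUAUUUAUcuuguacauau
UBE2K, first site, chr4:39779860-39779888, plus strand: ucuuuaaguguUAUUUAUcuuaaauuaua
UBE2K, second site, chr4:39780196-39780224, plus strand: agauuuuucuuUAUUUAUuuuaaauaccu
UBE2K, the third site, chr4:39781431-39781459, plus strand: cggauuuugcuUAUUUAUgcacuacagaa
UBE2M, chr19:58556017-58556045, minus strand: uccccugcaaaUAUUUAUugggggccaug
UBE2R2, chr9:33917996-33918024, plus strand: cacuugguugcUAUUUAUuuuaaaggcag

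The tables gave 18388399, 19092834 and 18348909 estimated counts in matched genes for GST, wild type and the Ala mutant. Mitochondrial genes took 10.6%, 15.5% and 7.53% of them in the same order. The name of the GST table carries another code than the other 2, and the labels do not say what the code means. If it marks a sequencing run, run and protein cannot be told apart for GST. Of 13 urothelial and epithelial markers, 6 reached the minimum count, KRT5 and UPK3A were at 0 in all 3 libraries, and their summed level was 724, 137 and 1093 TPM. TPM, transcript abundance scaled to a fixed total, is a level per transcript length. The 4 mesenchymal markers summed to 1009, 91.0 and 643 TPM. Leukocyte markers summed to at most 0.595 TPM in any library, and the erythroid and hepatocyte markers to at most 0.340 TPM. The epithelial and the mesenchymal sum were lowest with the wild-type protein, and their part in the results was not tested.

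UBE2 transcripts took 0.455% of the matched counts with GST, 0.668% with the wild-type protein and 0.464% with the Ala mutant. The wild-type library was thus the high one, and the other 2 differed little. UBE2N made up 3.73%, 14.2% and 3.04% of the UBE2 counts in the same order, and without it the UBE2 share was 0.438%, 0.573% and 0.450%. Across the 32 genes with a mean of at least 10 estimated counts, the wild-type library was the highest of the 3 for 21 genes and the Ala library the lowest for 21. In 19 genes both held at once, and 7 genes had the opposite order. These orders were not counted over all genes, so they cannot be read as particular to the family. The remaining 5 genes could not enter a comparison. UBE2U, UBE2QL1 and UBE2L5 were at 0 in all 3 libraries, where 3 counts, the limit that a count of 0 allows, would be 0.159, 0.150 and 0.176 CPM (counts scaled to a fixed library total). UBE2F-SCLY, a readthrough gene, had 2, 6 and 8 counts, and UBE2Q2L had 2, 4 and 0.

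Levels per length differed widely between members. UBE2C, the E2 with which the anaphase-promoting complex starts ubiquitin chains in mitosis, was the most abundant in all 3 libraries, at 1225 TPM with GST, 1062 with wild type and 1274 with the Ala mutant. UBE2S, which extends those chains, came next at 311, 541 and 680 TPM. Next below stood UBE2M with GST and the Ala mutant, at 222 and 252 TPM, and UBE2E1 with wild type, at 395 TPM. At the low end UBE2O stood at 2.65, 2.79 and 2.49 TPM, and UBE2D1 at 3.87, 10.4 and 1.04 TPM. Neighbours in the middle of the order lay close together. With GST, UBE2E1 was 1.09 times UBE2V1, which came next below it. Without replicates, no spread is available to separate such neighbours. The 5 most abundant members held 67.7%, 63.4% and 75.9% of the UBE2 TPM, and 6, 10 and 4 members reached 100 TPM.

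**Figure D1:**
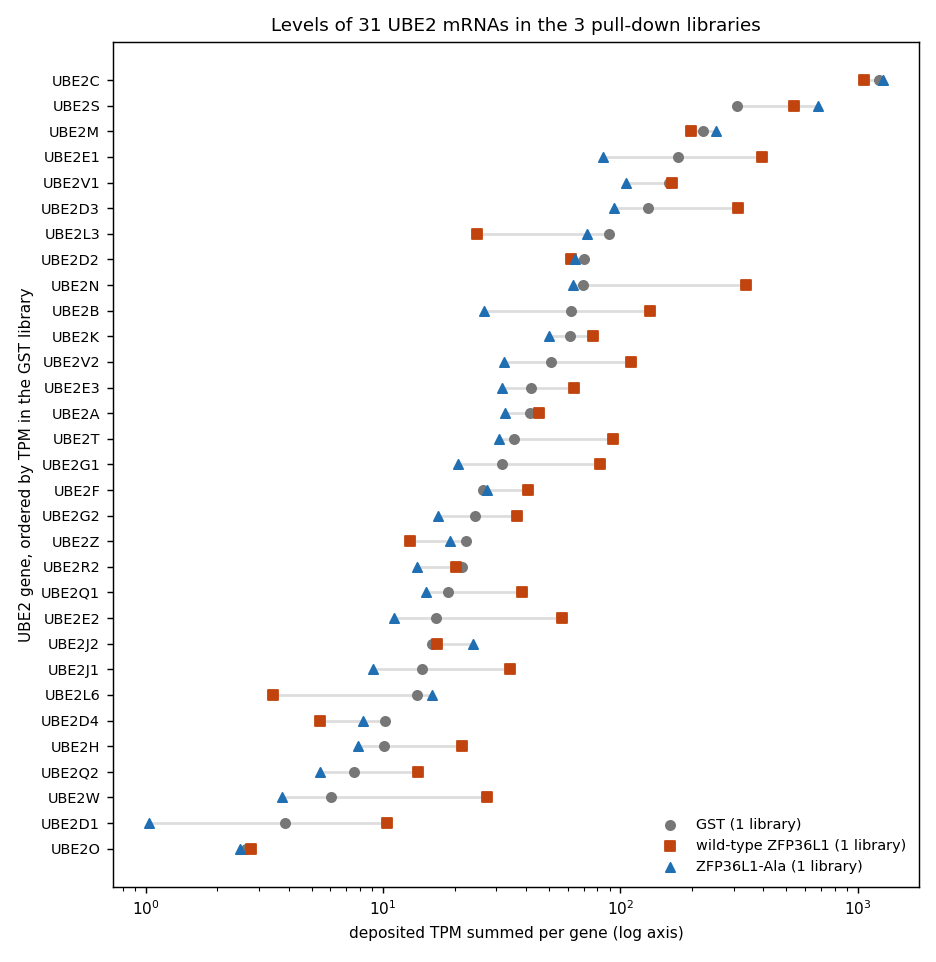
Deposited TPM summed per gene (log axis) for 31 of the 32 measured UBE2 genes, ordered by their level in the GST library, with 1 point per library. UBE2C is at the top in all 3 libraries, and the wild-type points lie to the right for UBE2N, UBE2E2 and UBE2W and to the left for UBE2L3 and UBE2L6.

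The comparison of wild type with GST asks which transcripts the wild-type protein recovered beyond the carrier. Of the 32 genes, 8 were higher and 4 lower, where a call needs a ratio of at least 2 between scaled counts and a 95% counting interval that excludes 1. Over all 14082 genes tested, 25.5% were higher and 34.2% lower, so the members' 25% higher is near the background and their 12.5% lower is below it. The median log2 ratio was 0.67 for the members and -0.03 for all genes, with 23 members above 0 and 9 below. That median stayed above 0 under every other scaling and minimum tried, and with a fit on GC content and length removed it was 0.34. For the Ala mutant over GST 1 member was higher and 1 lower, where 9.00% and 5.15% of all genes were called, and the median was -0.13 against 0.04. For wild type over the Ala mutant 12 were higher and 4 lower, where 30.1% and 36.0% of all genes were called, and the median was 0.55 against -0.04. The split of higher and lower calls depended on the scaling. With totals that leave out the most abundant genes it was 11 and 3 for wild type over GST, and on the TPM scale 13 and 2. On the TPM scale it was 1 and 3 for the Ala mutant over GST and 15 and 2 for wild type over the Ala mutant. The share of all genes called was not taken under these scalings, so a shift of the family cannot be told from one of all genes. The median of all genes moved too, to 0.07 with such totals and 0.06 on TPM for wild type over GST. For wild type over the Ala mutant it was 0.25 on TPM. The comparisons share libraries, so they are not independent of each other.

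**Figure D2:**
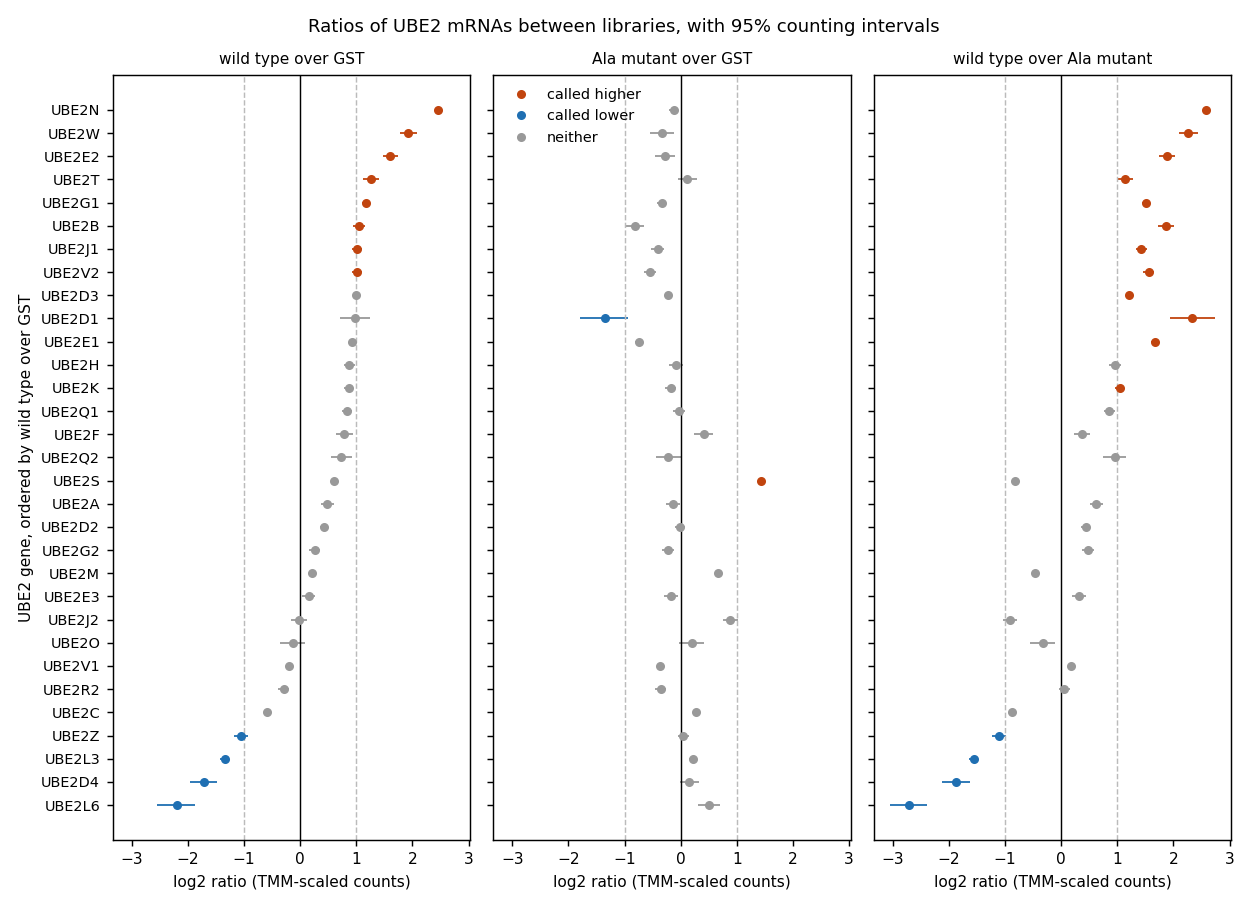
Log2 ratios of TMM-scaled counts for 31 UBE2 genes in the 3 comparisons, with 95% counting intervals and dashed lines at a 2-fold difference. Wild type over GST runs from -2.20 for UBE2L6 to 2.46 for UBE2N, whereas 29 of the 31 genes are uncalled for the Ala mutant over GST.

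UBE2N, which builds non-degradative ubiquitin chains in signalling and DNA repair, stood highest. It had 3116 counts with GST, 18145 with wild type and 2590 with the Ala mutant. The wild-type library was far above the other 2, which lay close together. The ratio was 5.50-fold over GST (log2 2.46, 95% interval 2.40 to 2.51) and log2 2.59 over the Ala mutant. Its main transcript has a 3' UTR of 2500 bases with 1 UAUUUAU, the site printed above, and 9 AUUUA pentamers. Genes within 1 percentage point of its GC content had a median log2 ratio of 1.03 over GST. Both UBE2V partners of UBE2N were measured. UBE2V2 had 1650, 3518 and 1025 counts and was called higher (log2 1.01, 0.93 to 1.10). UBE2V1 had 7364, 6807 and 5200 counts and a log2 ratio of -0.20 (-0.24 to -0.15). The UBE2V1 value carries a limit, since 41.1% of the 31-base words of its transcripts also occur in other genes, 39.8% in the readthrough gene TMEM189-UBE2V1.

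Among the E2 enzymes that work with many RING ligases, the UBE2D and UBE2E genes split. UBE2D3 had 7197, 15126 and 5585 counts, and UBE2D2 had 2497, 3534 and 2243. UBE2D1 was the rarest, with 175, 364 and 62 counts. Wild type was the highest library for these 3 genes. UBE2D3 and UBE2D1 lay just outside the 2-fold rule over GST, at 1.99-fold and 1.96-fold. UBE2J1 and UBE2V2 lay just inside that rule, at 2.02-fold and 2.01-fold. The UBE2D1 value is a gene sum whose transcripts differed. Its coding transcript UBE2D1-201 was not separable from even over GST (log2 0.33, -0.02 to 0.69). The larger step was in UBE2D1-203, which retains an intron (log2 1.75, 1.33 to 2.21). The UBE2D2 direction depends on the unit, because its TPM was lower with wild type than with GST, at 62.0 against 70.5, while its scaled counts were higher (log2 0.42). UBE2D4 went the other way with 578, 186 and 584 counts, a 3.28-fold lower value with wild type than with GST (log2 -1.72, -1.96 to -1.48). On the TPM scale its log2 ratio was -0.85, short of 2-fold, and its transcript UBE2D4-206 was higher with wild type (log2 1.08). Under the rule above UBE2D1 was also the only member called lower with the Ala mutant than with GST (log2 -1.35, -1.80 to -0.93), a call that rests on 62 counts in that library.

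UBE2E2 had 602, 1935 and 449 counts and was 3.03-fold higher with wild type than with GST (log2 1.60, 1.47 to 1.74). UBE2E1 had 4394, 8858 and 2391 counts, a log2 ratio of 0.93 over GST and 1.67 over the Ala mutant. UBE2E3 had 1228, 1442 and 991 counts and a log2 ratio of 0.15 over GST. The order of the libraries, wild type above GST above the Ala mutant, was thus shared by all 3 UBE2E genes, while the size of the step differed.

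The E2 enzymes of protein quality control at the endoplasmic reticulum include the membrane-anchored UBE2J1 and UBE2J2 and the soluble UBE2G2. UBE2J1 had 1478, 3165 and 1007 counts and was called higher over GST (log2 1.02). UBE2J2 had 811, 846 and 1360 counts, so there the Ala library was the high one, with a log2 ratio of 0.89 for the Ala mutant over GST. UBE2G2 had 1676, 2123 and 1306 counts (log2 0.26 for wild type over GST). Its paralog UBE2G1, which extends chains on substrates of cullin ligases, had 2950, 7008 and 2112 counts and was 2.24-fold higher with wild type. UBE2G1 carries no UAUUUAU in a 3' UTR of 3295 bases, a length at which 59.5% of genes hold one.

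UBE2A and UBE2B, the counterparts of yeast Rad6 in the tolerance of DNA damage, had 1132, 1676 and 933 counts and 1007, 2205 and 519 counts. UBE2B was called higher over GST (log2 1.05, 0.94 to 1.16), and UBE2A was not (log2 0.48). Of the 2, UBE2A holds UAUUUAU. UBE2T, the E2 of the Fanconi anaemia pathway, had 602, 1523 and 593 counts, 2.39-fold higher with wild type than with GST. Its main 3' UTR has 178 bases and holds the site, which 5.86% of 3' UTRs of like length do. UBE2W, which attaches ubiquitin to protein amino termini, had 445, 1794 and 320 counts. That is 3.81-fold over GST (log2 1.93, 1.78 to 2.08), the second highest ratio of the family. Wild type was the highest library in all 4 genes of this group.

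The members lower with wild type were UBE2L3, UBE2L6, UBE2D4 and UBE2Z. UBE2L6, the E2 for the interferon-induced modifier ISG15, had 402, 92 and 517 counts and was 4.60-fold lower with wild type than with GST (log2 -2.20, -2.55 to -1.88). UBE2L3, which serves HECT and RBR ligases, had 3824, 1590 and 4025 counts and was 2.55-fold lower. UBE2Z, which accepts ubiquitin from the E1 enzyme UBA6, had 1613, 821 and 1514 counts and was 2.08-fold lower. On the TPM scale UBE2Z and UBE2D4 fell short of 2-fold, at log2 -0.76 and -0.85. By the best-counted transcript UBE2L3 fell short, at log2 -0.90. In all 4 the wild-type library was the low one, and GST and the Ala mutant differed by less than 2-fold.

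The cell cycle pair and the E2 enzymes of ubiquitin-like proteins showed other orders. UBE2S had 6252, 10049 and 15226 counts, highest with the Ala mutant, and was the only member called higher there over GST, at 2.68-fold (log2 1.42, 1.38 to 1.47). UBE2C had 16285, 11372 and 17892 counts and was lowest with wild type (log2 -0.60 over GST). UBE2M, which loads NEDD8 onto cullins, had 4859, 5930 and 7010 counts. Its log2 ratio of 0.21 for wild type over GST turns to -0.16 on the TPM scale. UBE2F, the second NEDD8 enzyme, had 572, 1042 and 688 counts (log2 0.78 over GST), and 18.7% of its 31-base words occur in other genes. A share of 19.6% of the 31-base words of UBE2S also occurs elsewhere.

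The remaining members were not called over GST. UBE2K, which can build ubiquitin chains by itself, had 2028, 3907 and 1627 counts, and UBE2H, the E2 of the CTLH ligase complex, had 1229, 2390 and 1054. Their log2 ratios over GST were 0.86 and 0.88, and UBE2K passed the rule over the Ala mutant (log2 1.04). UBE2Q1 had 1393, 2625 and 1241 counts and UBE2Q2 366, 643 and 285, both with the highest value in the wild-type library. UBE2R2, an E2 of cullin ligases, had 2064, 1778 and 1466 counts, and UBE2O, which unites E2 and E3 activity, had 342, 330 and 355.

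Close paralogs let 2 mRNAs with like proteins be compared within the same libraries, since library scaling cancels in the ratio of their ratios. In all, 17 pairs were compared in 3 comparisons, 51 in total, and no p-value was computed. Pairs within the UBE2D and UBE2E sets share genes and are not independent. The interval excluded 1 in 15 pairs for wild type over GST, 13 for the Ala mutant over GST and 16 for wild type over the Ala mutant. The difference was at least 2-fold in 7, 5 and 13 pairs. Pairs of high protein identity could lie far apart. UBE2D3 and UBE2D4 are identical at 92.5% of aligned residues and 77.9% of aligned coding bases, yet the wild-type over GST ratio of UBE2D3 was 6.53 times that of UBE2D4 (5.51 to 7.76). UBE2A and UBE2B differ at 7 of 152 residues, and the ratio of UBE2B was 1.48 times that of UBE2A (1.33 to 1.65). For UBE2A and UBE2B that ratio was 1.14 by the best-counted transcript of each gene and 1.95 on the TPM scale. UBE2V2 exceeded UBE2V1 2.31-fold (2.16 to 2.47), with 90.3% identity, and by the best-counted transcript 4.61-fold. Of the 51 values, 25 lay outside their counting interval on the TPM scale. By the best-counted transcript 33 did, 4 of them with the opposite direction.

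The widest gap lay between UBE2R2 and CDC34, its paralog with a different symbol and 82.5% protein identity. CDC34 had 2409 counts with GST, 211 with wild type and 3704 with the Ala mutant. The wild-type over GST ratio of UBE2R2 was 9.83 times that of CDC34 (8.42 to 11.5), and over the Ala mutant 21.3 times (18.2 to 25.0). The 2 genes also differ in GC content, at 46.4% for UBE2R2 and 63.0% for CDC34. Genes within 1 percentage point of these contents had median log2 ratios of 0.35 and -2.76 for wild type over GST. The part of GC content in the gap was not tested. UBE2J1 exceeded UBE2J2 2.05-fold over GST, and UBE2E2 exceeded UBE2E3 2.74-fold. UBE2Q1 and UBE2Q2 were not separable in any of the 3 comparisons, and for wild type over GST their interval allowed a ratio of ratios from 0.926 to 1.24. UBE2D1 and UBE2D3 were also not separable over GST (0.990, 0.822 to 1.19), though by the best-counted transcript their value was 0.565.

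**Figure D3:**
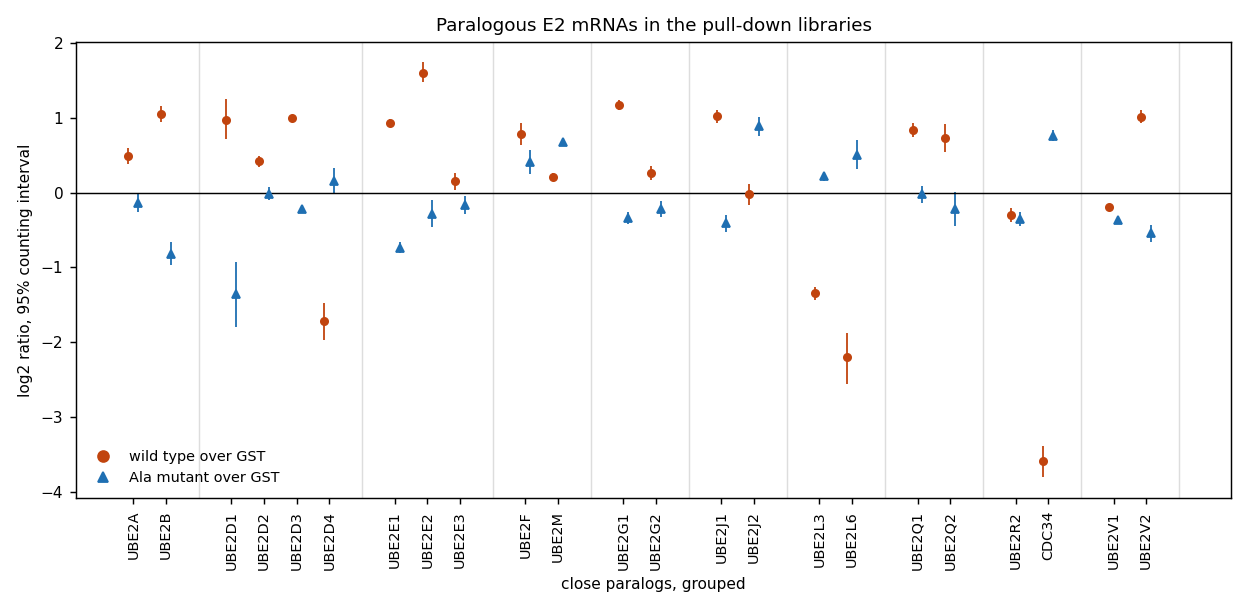
Log2 ratios of wild type over GST (circles) and the Ala mutant over GST (triangles) with 95% counting intervals, with close paralogs side by side and a line between sets. CDC34 at -3.59 and UBE2D4 at -1.72 stand apart from their paralogs for wild type over GST, while UBE2Q1 and UBE2Q2 lie together.

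GC content of the counted transcripts moved with the ratios. The 8 members higher with wild type over GST had GC contents of 35.2% to 43.9%, and the 4 lower ones 48.1% to 56.5%. The same ranges were not taken over all genes called, so this split cannot be read as a trait of the family. Across the 32 members the Spearman correlation of GC content with the log2 ratio was -0.73 for wild type over GST, 0.81 for the Ala mutant over GST and -0.85 for wild type over the Ala mutant. Over all genes the same values were -0.60, 0.55 and -0.69. These are descriptions across genes that share 3 libraries. Within paralog pairs the gene of lower GC had the higher wild-type over GST ratio in 14 of 17 pairs and the higher wild-type over Ala ratio in 16. It had the higher Ala over GST ratio in 0 of 17. Genes of the UBE2D and UBE2E sets enter several pairs each, so the pairs are not independent. The same share was not taken over pairs of other genes.

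Against genes within 1 percentage point of the same GC content, members could be placed individually. For wild type over GST, 19 members lay above the median of such genes and 12 below. UBE2M, with the highest GC content of the family at 65.2%, had a log2 ratio of 0.21 where genes of like GC had a median of -2.99. Its site lies 55 bases after the stop codon. UBE2S had 0.60 against -1.70 and UBE2J2 -0.02 against -2.44. These 3 genes were not called, yet each lay well above its GC neighbours. UBE2D4 was the clearest exception below, at -1.72 against 0.08. A fit on GC content and length changed which members stood out. At least 2-fold above the fit were 9 members and below it 1, where 22.5% and 22.3% of all genes were. Of the 8 members called higher only UBE2N, UBE2T and UBE2E2 were among the 9, at 1.43, 1.39 and 1.28 above the fit on the log2 scale. The other 5 fell short, with 0.60 for UBE2W, 0.38 for UBE2B, 0.20 for UBE2G1, 0.09 for UBE2V2 and -0.03 for UBE2J1. Of the 4 called lower only UBE2D4 stayed beyond 2-fold, at -1.71, while UBE2L3 stood at -0.81, UBE2L6 at -0.55 and UBE2Z at -0.28.

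**Figure D4:**
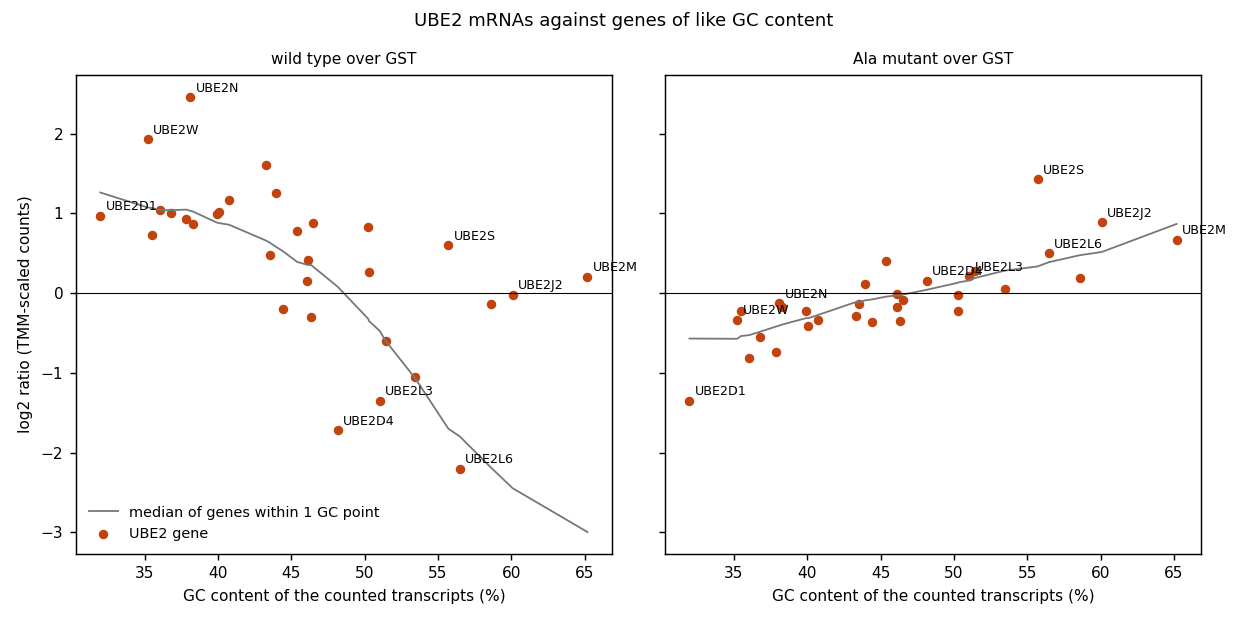
Log2 ratio against GC content of the counted transcripts for 31 UBE2 genes (points), with the median of all genes within 1 percentage point of GC content at each member (line). UBE2M, UBE2S and UBE2N lie above the line for wild type over GST and UBE2D4 below it; for the Ala mutant over GST the line slopes the other way and UBE2S lies above it.

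The 9 members with UAUUUAU had a median log2 ratio of 0.86 for wild type over GST, and the 23 without it 0.60. Over all genes these medians were 0.94 and -0.68. Of the members with a site 4 were higher and 0 lower, and of the 23 without 4 were higher and 4 lower. Over all genes 47.2% of those with a site were higher and 8.67% lower, and 17.9% and 44.8% of those without. The difference between the class medians was thus smaller among the UBE2 genes than over all genes. For higher calls the members, at 4 of 9 and 4 of 23, lay close to all genes in both classes. These differences were not tested. For the Ala mutant over GST the medians were -0.18 with a site and -0.08 without. UBE2R2 and UBE2G2 hold a site and had log2 ratios of -0.30 and 0.26, and UBE2E2 lacks one and had 1.60. The shorter pentamer AUUUA was found in the 3' UTR of 29 members, against 67.9% of all genes, at a median of 2.61 per kb against 1.62. The deposited transcript length differed from that of GENCODE 29 for the main transcript of 5 members, UBE2A, UBE2E3, UBE2G2, UBE2S and UBE2T, so their 3' UTRs may differ from those counted.

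Transcripts of the same gene did not always share its ratio. Of the 303 transcripts, 95 had a mean of at least 10 counts and 141 were at 0 in all 3 libraries. In 25 genes at least 2 transcripts passed, and the 2 best-counted ones differed by at least 1 in log2 ratio with separate counting intervals in 15 genes for wild type over GST. The same held in 8 genes for the Ala mutant over GST and in 14 for wild type over the Ala mutant. No such share was taken over other genes, so these counts cannot be read as particular to the family. The split of reads between overlapping transcripts is an estimate, and its own error is not in the counting intervals.

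UBE2V1 is one case. UBE2V1-203, which codes for protein, had 6364, 2821 and 4158 counts, and UBE2V1-205, a processed transcript, had 883, 3134 and 932. The first was lowest and the second highest with wild type, so the flat gene total of UBE2V1 joins a 2.39-fold lower and a 3.35-fold higher transcript. However, 39.8% of its 31-base words occur in the readthrough gene TMEM189-UBE2V1, so reads of these genes may not be told apart. The neighbour TMEM189 was also highest with wild type, at 627, 2148 and 609 counts. Whether shared reads made the split was not tested. The 2 best-counted transcripts of UBE2C differed in size of ratio, though neither was higher with wild type than with GST. UBE2C-203 had 9036, 8423 and 9075 counts (log2 -0.18) and UBE2C-204 had 6417, 1288 and 6353. UBE2C-204 was 5.27-fold lower with wild type than with GST.

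UBE2L3-202 had 805 counts with GST, 0 with wild type and 362 with the Ala mutant. UBE2L3-201 then held 100% of the UBE2L3 counts with wild type and 66.1% with GST. UBE2D2-203, annotated as a target of nonsense-mediated decay, had 636, 0 and 89 counts beside 1661, 3421 and 1615 for UBE2D2-202. UBE2J2-208, of the same class, had 32, 234 and 0 counts. UBE2D1-203, a retained intron, had 58, 208 and 7 counts and was 57.1% of the UBE2D1 counts with wild type against 33.1% with GST. In UBE2E1 the shift was in the Ala library, where UBE2E1-205 had 1144 counts against 3462 with GST and UBE2E1-203 had 914 against 167.

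**Figure D5:**
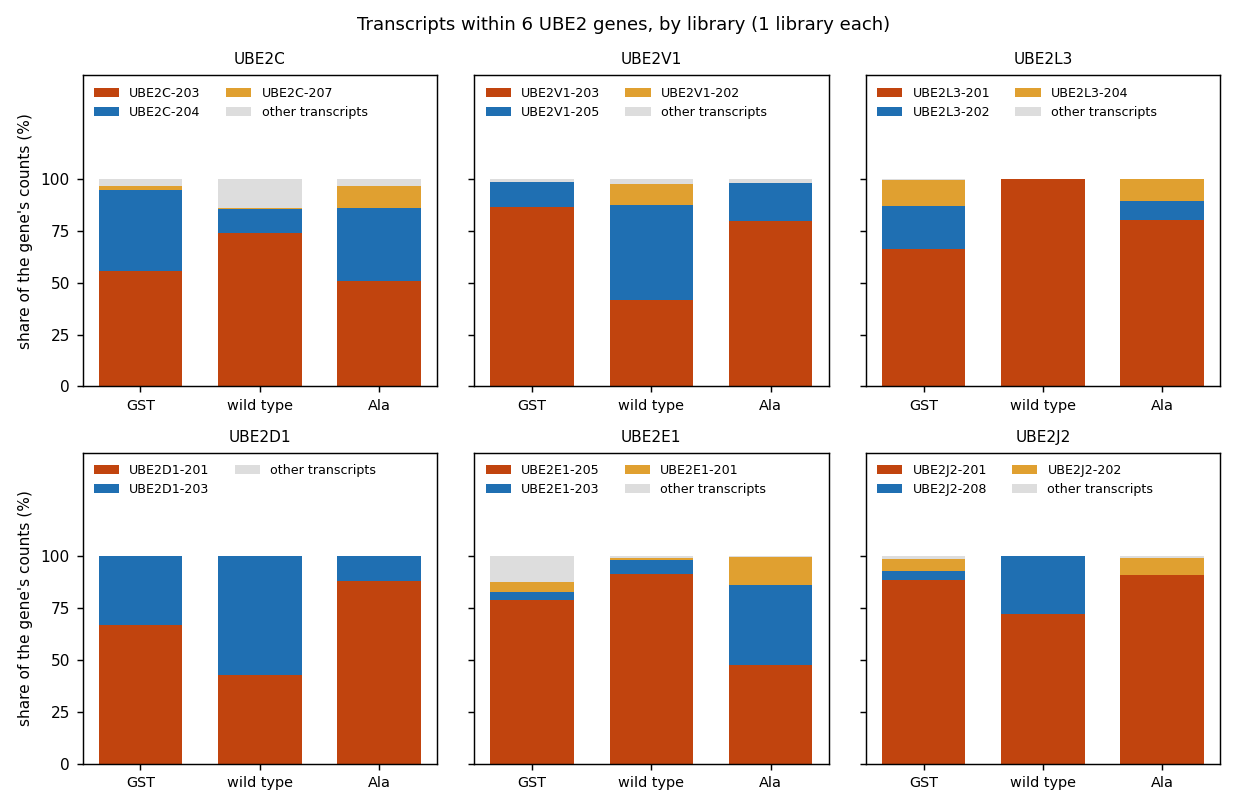
Share of each gene's estimated counts (%) taken by its 3 best-counted transcripts in the 3 libraries (1 library each), for 6 UBE2 genes. UBE2V1-205 takes 46.0% of UBE2V1 with wild type against 12.0% with GST, and UBE2L3-201 takes all of UBE2L3 with wild type.

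The rest of the ubiquitin pathway was counted from chosen lists. Over all genes tested, 25.5% were higher and 34.2% lower for wild type over GST. The lists are short and were not tested against these shares, so their counts cannot be read as particular to them. Among 7 measured E1 enzymes 1 was higher and 2 lower for wild type over GST. UBA1, the main ubiquitin E1, had 8506, 4194 and 8819 counts, and SAE1, of the SUMO E1, had 8060, 1142 and 9425, both lowest with wild type. Among 12 genes for ubiquitin and its relatives 2 were higher and 6 lower, with a median log2 ratio of -1.05. RPS27A, which encodes ubiquitin fused to a ribosomal protein, had 9581, 9427 and 8582 counts and lay close to even in all 3 comparisons.

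The same shares of all genes, 25.5% higher and 34.2% lower, apply to the lists that follow. Of 8 genes with an E2 fold but no UBE2 symbol 2 were higher and 2 lower. Of 39 E3 ligases and their parts 11 were higher and 9 lower (median 0.25). CDC20, an activator of the complex that UBE2C and UBE2S serve, had 4922, 764 and 10056 counts, and RBX1, a RING subunit of cullin ligases, had 3359, 3580 and 2776. Of 14 deubiquitinases, which remove ubiquitin, 7 were higher and 4 lower (median 0.99). USP1, which reverses the step made by UBE2T, had 2929, 7824 and 1457 counts, and USP14, of the proteasome, had 2035, 7383 and 1478. For the Ala mutant over GST the 5 lists had 0, 0, 1, 6 and 1 genes higher and 0, 1, 1, 1 and 0 lower, in the order E1, E2 fold, ubiquitin, E3 and deubiquitinases. Over all genes 9.00% were higher and 5.15% lower in that comparison.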

How the data were processed

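Per the submitters' processing notes, kallisto, DESeq2 and hg19 were used, with versions and annotation release not given in the sources used here. Per the file headers, the deposited tables hold an estimated count, a TPM value, a length and an effective length for each transcript. The authors made the TPM values from estimated counts and effective lengths, as the header names imply. Transcripts were matched by identifier to GENCODE 29, which placed 92.6% of them on GRCh38, and counts were summed per gene and rounded. Libraries were scaled by TMM (edgeR 4.0.16), with factors of 1.03, 1.05 and 0.933. A prior count of 0.5 was added before log2 ratios were taken, and 95% intervals are exact Clopper-Pearson. Genes needed a mean of 10 counts. A single member enters all counts and medians, but its own values are not reported here. GC content is the count-weighted mean over a gene's transcripts, and the fit is cubic in GC content and log2 length. Identity used the principal coding transcripts (Biopython 1.88). The ratio code was tested on simulated data. The members, lists, paralog sets and naming rule (every UBE2 gene and its 2 best-counted transcripts where they differ) were chosen with earlier results of these data known. The AUUUA count and the GC neighbours were added after the data were seen. Alternatives covered scaling (DESeq2 1.42.0), minimum, fold, prior count, TPM, single transcripts and GC content.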

Additional observations from a re-analysis of the deposited data

How the results depend on the processing

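Members higher over GST with wild type numbered 5 with a minimum of 100 counts, 13 on TPM with either pseudocount, 17 at 1.5-fold and 3 at 3-fold, against 8. Members lower numbered 2 on TPM with either pseudocount and at 3-fold, and 1 with the GC and length fit removed, against 4. For the Ala mutant over GST, higher members numbered 3 at 1.5-fold, 0 at 3-fold and 0 with the fit removed, against 1. Lower members numbered 2 with totals lacking the most abundant genes and by the best-counted transcript, 3 on TPM with either pseudocount and at 1.5-fold, and 0 at 3-fold and with the fit removed, against 1. The median there moved from -0.13 to -0.35 with such totals, and to -0.34 and -0.35 on TPM, where the median of all genes also moved, to -0.17, -0.16 and -0.18. For wild type over the Ala mutant, 6 were higher at 3-fold, and lower members numbered 7 at 1.5-fold, 2 at 3-fold and on TPM with either pseudocount, and 1 with the fit removed. With the fit removed UBE2J1 turned to -0.0336 over GST and -0.0760 over the Ala mutant, and UBE2K to -0.55 over the Ala mutant. By the best-counted transcript, ratios of ratios turned to 0.647 for UBE2D1 to UBE2D2 over GST, 0.972 for UBE2D1 to UBE2D3 and 1.69 for UBE2E1 to UBE2E2 over the Ala mutant, and 1.04 for UBE2L3 to UBE2L6 for the Ala mutant over GST. The cause was not tested. Apart from the fit for wild type over GST, the share of all genes called was not taken under these alternatives. The counts of members therefore cannot be set against a background there. The other 92 summary values stayed within 1.5 times the count or within a 95% rank interval of the members' median. That interval takes the members as independent, although they share the same libraries, so it is only a rough bound. Under it the fall of the wild type over GST median from 0.67 to 0.34 with the fit removed did not count as moved. Of the single-gene ratios under the alternatives, 689 kept their call or lack of one, 35 lost a call and 41 gained one. A further 3 that were called turned in sign, as listed. Changes of sign in uncalled ratios were not counted as turned. On TPM 5, 5 and 2 members changed sign for wild type over GST, the Ala mutant over GST and wild type over the Ala mutant. With the fit removed UBE2K went from 0.86 to -0.24 for wild type over GST, also without a call. Of 51 ratios of ratios, 25 moved outside their interval on TPM sums, and 29 moved and 4 turned by the best-counted transcript. No paired analysis was possible because each protein had 1 library.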

Other observations

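Genes named after UBE2 that do not code for protein numbered 52, of which 32 were at 0 in all 3 libraries and 3 had a mean of at least 10 counts. UBE2SP1, a processed pseudogene, had 15 counts with GST, 59 with wild type and 69 with the Ala mutant. UBE2SP2 had 0, 3 and 50 counts and UBE2CP1 had 24, 5 and 11. UBE2S shares 19.6% of its 31-base words with other genes, 15.5% with UBE2SP1, so reads of UBE2S and UBE2SP1 may not be told apart. UBE2C shares 3.22% with other genes. TMEM189, the neighbour that shares a readthrough gene with UBE2V1, had 627, 2148 and 609 counts.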
